A study of Glycine max with 12 samples.

Results

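Chalcone synthase condenses a coumaroyl-CoA starter with malonyl-CoA units into naringenin chalcone, the first committed step of the flavonoid pathway. In legumes the product also feeds the isoflavonoids, a class that includes phytoalexins and root signals to symbiotic bacteria. Soybean (Glycine max) carries a family of such genes, several of them close copies standing side by side on chromosome 8.

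The 10 chalcone synthase genes described here were taken by identifier from a list (Wm82.a2 numbering), out of 56877 rows with values in the deposited table. By their identifiers, 5 lie on chromosome 8, which are Glyma.08G109200, Glyma.08G109300, Glyma.08G109400, Glyma.08G109500 and Glyma.08G110700. The other 5 are Glyma.01G228700, Glyma.02G130400, Glyma.05G153200, Glyma.09G075200 and Glyma.11G011500. The table carries no gene names, so it can neither bear out nor contradict the label. RefSeq (assembly Glycine_max_v4.0) lists 17 genes with a CHS symbol, 9 of them on chromosome 8 and 1 a pseudogene, but 0 identifiers of the table could be paired with its entries. The 10 genes are therefore named by identifier, and other members of the family may exist among the remaining rows.

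RNA was sequenced from soybean roots of 2 genotypes, the line labelled OX and WT, exposed to 50 µM AlCl3 (Al) or to 0 µM (CK), in a study that looked for candidate genes of aluminium tolerance. The 4 groups, Al-OX, CK-OX, Al-WT and CK-WT, held 3 libraries each, and their totals ran from 15923413 to 18399566 counts. The meaning of OX is not given in the labels, so no targeted gene could be checked, and root markers could not be looked up without names. The labels also give neither the plant age nor the length of exposure, nor whether libraries came from separate plants, so each p-value reflects only how far these libraries vary, a part of which may be technical. The labels say only roots, not which part, and in such bulk RNA fewer cells of a type and less RNA per cell cannot be told apart.

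The deposited values are estimated counts with decimals, and for these genes the decimals tie certain rows together. Of the 120 values of the 10 genes, 85 were not whole numbers (tolerance 1e-06). The values of Glyma.01G228700 and Glyma.11G011500 added to a whole number in 12 of 12 libraries (tolerance 0.01). Among the 56876 other rows of the table, Glyma.11G011500 was the 1 row with decimals that complemented Glyma.01G228700 in this way. A second closed set had 9 rows, namely Glyma.05G153200, Glyma.08G109200, Glyma.08G109300, Glyma.08G109400, Glyma.08G109500, Glyma.08G110300, Glyma.08G110500, Glyma.08G110800 and Glyma.08G110900. These 9 rows also added to whole numbers in 12 of 12 libraries (tolerance 0.045), and of all 502 subsets of 2 or more of them only the full set did. Its 5 listed genes alone did so in 1 of 12 libraries, and the 8 chromosome 8 rows without Glyma.05G153200 in 10 of 12. Sums of this kind are what a division of shared reads among the rows would leave, though the step that made the decimals is not given; in that case the value of a single copy depends on the division, and the sum over the set does not. These sets were found after the values were seen. Outside them, Glyma.09G075200 had decimals in 12 of 12 libraries and Glyma.02G130400 in 1, and no closed set is given for either.

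Levels are given below as CPM, read counts scaled to library size, with the trimmed mean of M values (TMM) as the scaling factor. Glyma.08G110700 had 0 counts in each of the 12 libraries and was not tested. Provided that its reads would be given to its own row, this allows up to 0.154 to 0.197 CPM per library (3 counts, counting error only). The other 9 genes passed the filter on low counts. The libraries of a group were often far apart. CK-OX replicate 2 was the highest of the 12 libraries for 5 of the 9 detected genes, and CK-WT replicate 1 was the lowest for 6 of them.

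**Figure D1:**
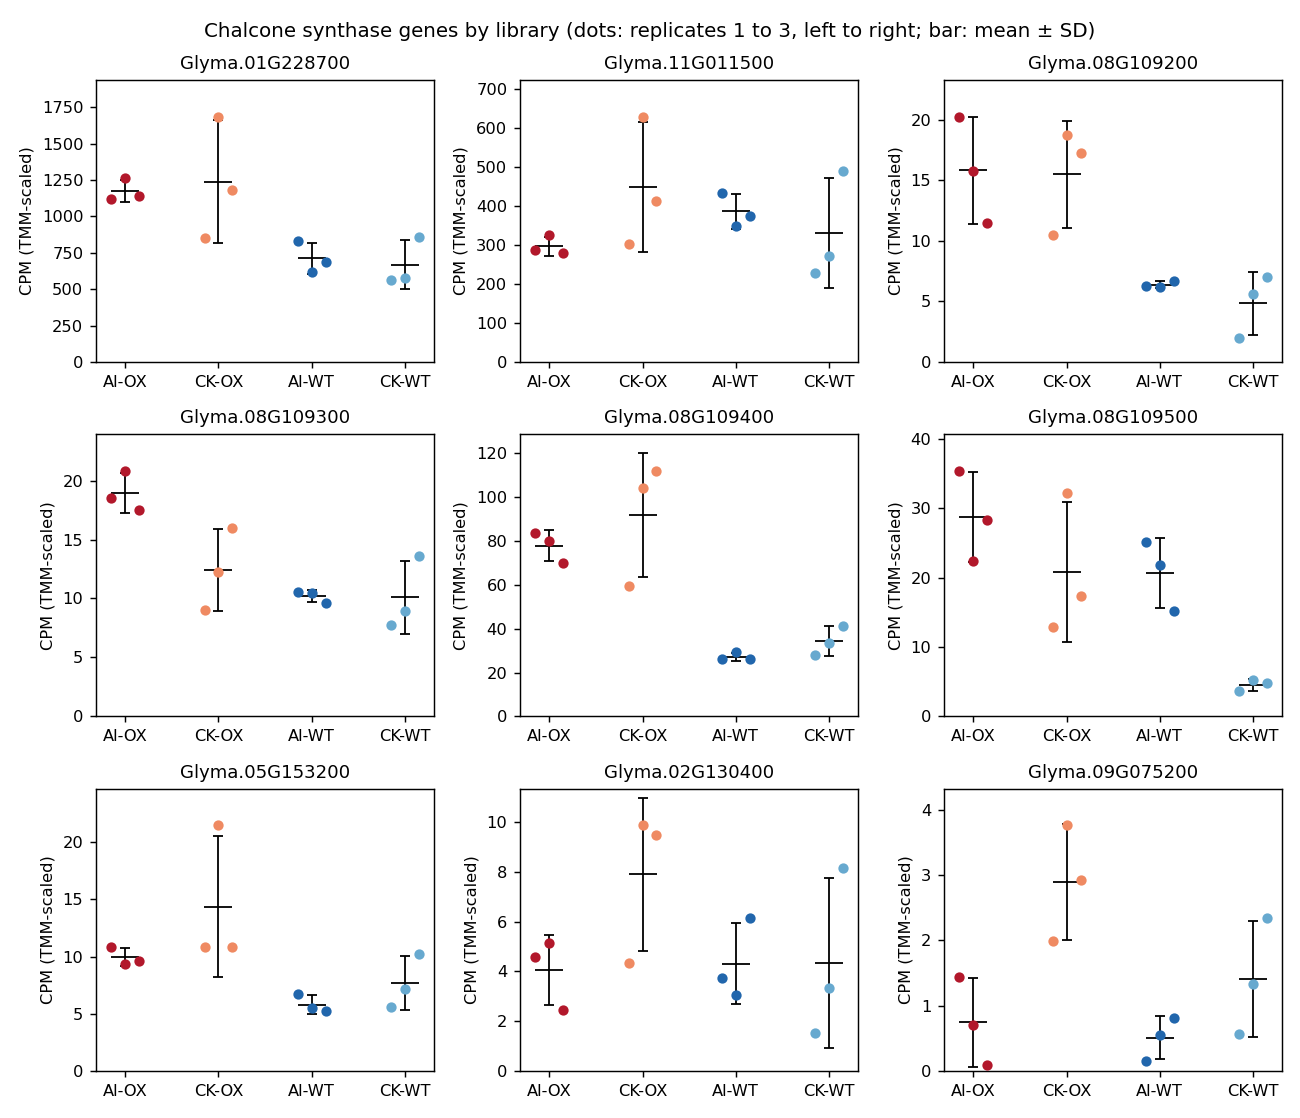
TMM-scaled CPM of the 9 detected chalcone synthase genes in each library, on linear axes from 0, with dots for replicates 1 to 3 from left to right and bars for the mean ± SD of each group (n = 3). Glyma.08G109400 lies at 59.5 CPM or more in all 6 OX libraries and at 41.5 CPM or less in all 6 WT libraries, and Glyma.08G109500 is at 5.21 CPM or less in CK-WT alone.

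The first pair of comparisons asked how the line labelled OX differs from WT in these genes. Without Al, OX exceeded WT in 3 of the 9 tested genes and fell below it in 0, where 2.93% of all tested genes were called higher and 1.5% lower. With Al, 2 of 9 were higher and 0 lower, against 4.16% and 1.91% of all tested genes. By edgeR over all 12 libraries, the genes called all lie on chromosome 8, which does not hold for every alternative, as given below. They also all belong to the closed set of 9 rows, which holds 5 of the tested genes, and the closed pair holds 2 more. Rows that may share reads are not independent, so the counts here and below are not of 9 separate readings. With each set summed into 1 row, 4 rows were tested, and 1 was called higher in OX in each treatment. The share of all rows called in that fit is not given. Of the 4 rows, Glyma.09G075200 lies outside both sets but had decimals in 12 of 12 libraries, so it may share reads with other rows. The fitted log2 change between the lines was positive, that is higher in OX, for 9 of the 9 genes in CK, against 49.4% of all tested genes. In Al it was positive for 7 of 9, against 43.4% of all tested genes. The median change of the 9 genes was 0.90 in CK, against 0.00 over all tested genes, and 0.72 in Al, against -0.05. All further counts here are of genes higher in OX, with the share of all tested genes after them. An unadjusted p under 0.05 was found for 5 of 9 in Al (9.05%) and 5 of 9 in CK (8.21%). The DESeq2 Wald test called 3 in Al (5.61%) and 4 in CK (4.67%), the fourth being Glyma.01G228700, which lies off chromosome 8. With limma-voom 2 were called in Al (4.89%) and 3 in CK (2.19%). When only the 2 groups compared were fitted, 5 genes were called in Al (6.61%), among them Glyma.01G228700 and Glyma.05G153200 off chromosome 8, and 1 in CK (0.973%). Calls in the text were made at an adjusted p under 0.05 (edgeR quasi-likelihood F-test, Benjamini-Hochberg over 37170 genes).

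Glyma.08G109400 was higher in OX in both treatments. It had 83.8, 79.8 and 70.0 CPM in Al-OX, against 26.2, 29.3 and 26.0 CPM in Al-WT. Without Al it had 59.5, 104.2 and 111.9 CPM in CK-OX, against 27.9, 33.6 and 41.5 CPM in CK-WT. No OX library overlapped a WT library of the same treatment. OX exceeded WT by a log2 fold of 1.52 ± 0.22 in Al (SE, adjusted p = 0.00131) and of 1.42 ± 0.22 in CK (adjusted p = 0.00355). The call in CK ended when only the CK groups were fitted (adjusted p = 0.0528).

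Glyma.08G109500 was higher in OX without Al, while its difference in Al missed the threshold (adjusted p = 0.531). It had 12.9, 32.1 and 17.4 CPM in CK-OX, against 3.60, 5.21 and 4.87 CPM in CK-WT. The CK-OX libraries varied widely, but the lowest of them was above every CK-WT library. The CK-OX level exceeded the CK-WT level by a log2 fold of 2.18 ± 0.33 (SE, adjusted p = 0.00321). In Al the gene had 35.4, 22.4 and 28.4 CPM in Al-OX, against 25.1, 21.8 and 15.1 CPM in Al-WT, and these groups overlapped (log2 fold change 0.47 ± 0.31).

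Glyma.08G109200 was called in CK. It had 10.5, 18.8 and 17.3 CPM in CK-OX, against 1.97, 5.58 and 7.02 CPM in CK-WT. The groups did not overlap, and the log2 fold change was 1.67 ± 0.38 (SE, adjusted p = 0.0258). That call ended without CK-OX replicate 2 or 3 (adjusted p = 0.109 and 0.0647), without CK-WT replicate 2 (adjusted p = 0.0793), and when only the CK groups were fitted (adjusted p = 0.124). In Al the gene had 20.3, 15.8 and 11.4 CPM in Al-OX, against 6.30, 6.16 and 6.70 CPM in Al-WT, again without overlap. The log2 fold change there was 1.31 ± 0.37 and missed the threshold (adjusted p = 0.0633), but passed it without CK-WT replicate 1 or 3 (adjusted p = 0.00901 and 0.0349). Without Al-OX replicate 1 it was 1.11 (adjusted p = 0.203).

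Glyma.08G109300 was called in Al. It had 18.5, 20.8 and 17.5 CPM in Al-OX, against 10.5, 10.4 and 9.60 CPM in Al-WT, and the groups did not overlap. The log2 fold change was 0.90 ± 0.23 (SE, adjusted p = 0.0381). The call ended when any 1 of the 6 Al libraries was left out (adjusted p = 0.0821 to 0.145) and without CK-OX replicate 2 or CK-WT replicate 2 (adjusted p = 0.0510 and 0.0532). In CK it had 9.05, 12.2 and 15.99 CPM in CK-OX, against 7.76, 8.96 and 13.6 CPM in CK-WT. These groups overlapped, and no difference was called (log2 fold change 0.30 ± 0.23, adjusted p = 0.607).

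Outside chromosome 8, no gene was called between the lines by edgeR over all 12 libraries. Glyma.01G228700 had 1117, 1261 and 1142 CPM in Al-OX, against 829, 618 and 690.4 CPM in Al-WT. Each Al-OX library was above each Al-WT library, yet the fitted change of 0.72 ± 0.26 (log2, SE) was not called (adjusted p = 0.165). It passed when only the Al groups were fitted (adjusted p = 0.0170). Without Al it had 849, 1686 and 1181 CPM in CK-OX, against 563, 578 and 861 CPM in CK-WT. Here the lowest CK-OX library fell below the highest CK-WT library, and the log2 fold change was 0.89 ± 0.26 (adjusted p = 0.0866). It passed by the DESeq2 Wald test (adjusted p = 0.0124) and without CK-OX replicate 1 or CK-WT replicate 3 (adjusted p = 0.0285 and 0.0354), whereas without CK-OX replicate 2 it was 0.62 (adjusted p = 0.375). Glyma.05G153200 had 10.9, 9.32 and 9.64 CPM in Al-OX, against 6.70, 5.50 and 5.20 CPM in Al-WT, without overlap but also without a call (log2 fold change 0.78 ± 0.29 SE, adjusted p = 0.175), and it passed when only the Al groups were fitted (adjusted p = 0.0138). In CK its log2 fold change was 0.90 ± 0.28 (adjusted p = 0.106), and it passed without CK-WT replicate 3 (adjusted p = 0.0426), which brought the count in CK to 5 of 9. The share of all tested genes called without that library is not given. Without CK-OX replicate 2 the log2 fold change of Glyma.05G153200 in CK was 0.51 (adjusted p = 0.481).

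Libraries of the lines did not overlap, with OX higher, for 5 of the 9 genes in Al and 4 of the 9 in CK, where 13.2% and 8.17% of all tested genes behaved so. The opposite order was shown by 0 genes in CK, against 9.33% of all tested genes, and by 1 in Al. That gene was Glyma.11G011500, at 286, 325 and 279 CPM in Al-OX against 435, 349 and 375 CPM in Al-WT, a pattern shown by 12.4% of all tested genes. Its log2 fold change of -0.38 ± 0.30 was not called (SE, adjusted p = 0.642). Without Al it had 302, 630.1 and 414 CPM in CK-OX, against 227, 272 and 491 CPM in CK-WT, which overlapped (log2 fold change 0.44 ± 0.30, adjusted p = 0.549). Between the lines, Glyma.02G130400 and Glyma.09G075200 were not called either, with adjusted p from 0.481 to 0.964. Between same-numbered CK libraries, OX was higher in 3 of 3 for 8 of the 9 genes, Glyma.01G228700 and Glyma.05G153200 among them, against 22.1% of all tested genes, and in 2 of 3 for Glyma.11G011500. The labels do not pair these libraries, and matching them by number rests on the data alone.

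**Figure D2:**
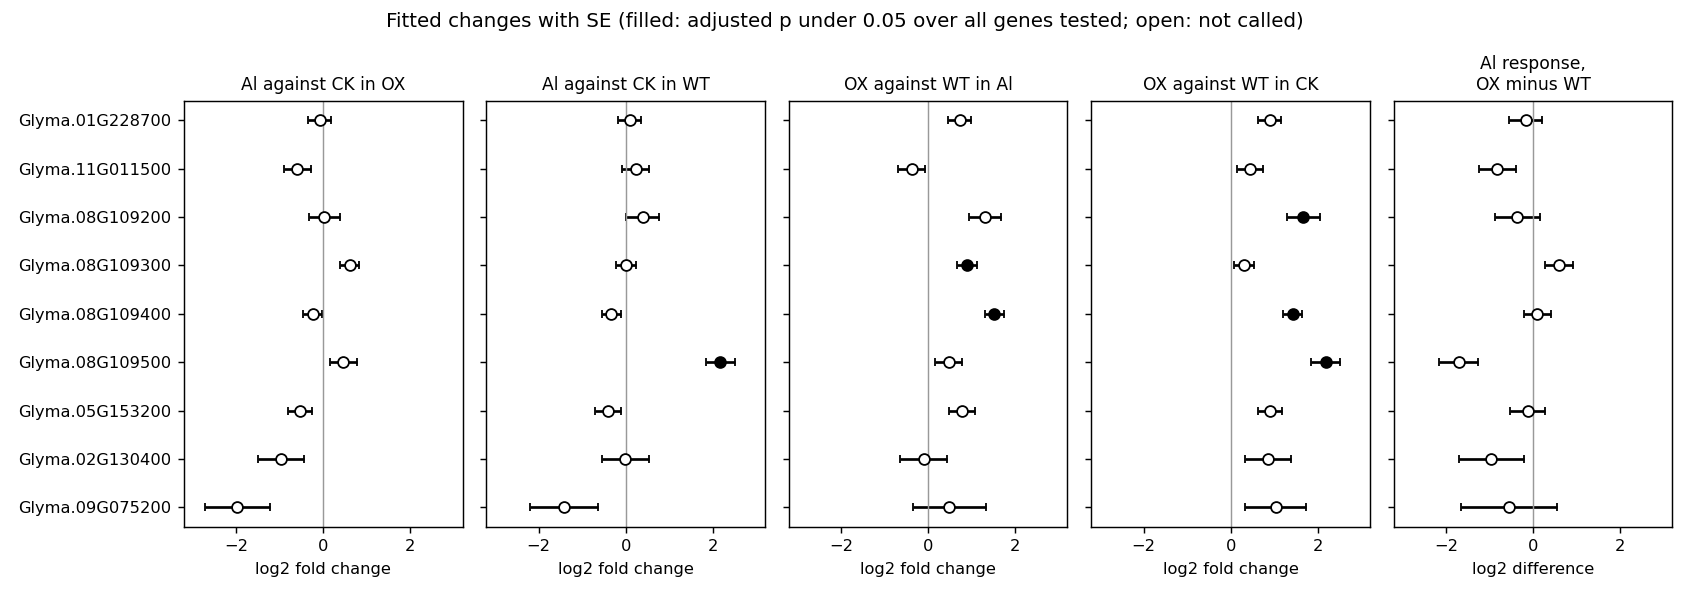
Fitted log2 fold change with its SE (bars) for the 9 tested chalcone synthase genes in 4 comparisons and, in the last panel, the Al response in OX minus that in WT (log2). Filled points passed an adjusted p of 0.05 over all genes tested. Filled points lie at the chromosome 8 genes alone, 3 of them in OX against WT in CK, 2 in OX against WT in Al and 1 in Al against CK in WT.

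The second pair of comparisons asked how Al changes these genes within a line. In WT, 1 of the 9 tested genes rose and 0 fell, where 21.5% of all tested genes rose and 15.9% fell; this was also the 1 gene with an unadjusted p under 0.05 (25.1% of all tested genes, higher), and the DESeq2 Wald test (22.7%) and limma-voom (21.8%) each called 1. In OX, 0 of 9 passed in either direction, where 21.2% of all tested genes rose and 15.2% fell. The median log2 fold change of the 9 genes was -0.24 in OX and 0.01 in WT, against -0.02 and -0.04 over all tested genes. In OX, 2 of the 9 had an unadjusted p under 0.05, Glyma.08G109300 higher and Glyma.09G075200 lower, and the DESeq2 Wald test and limma-voom each called these 2. Over all tested genes, in either direction, the shares were 46.8% at an unadjusted p under 0.05, 40% by DESeq2 and 35.9% by limma-voom.

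The gene that rose in WT was Glyma.08G109500. It had 25.1, 21.8 and 15.1 CPM in Al-WT, against 3.60, 5.21 and 4.87 CPM in CK-WT. The lowest Al-WT library was well above the highest CK-WT library, and the gene rose by a log2 fold of 2.17 ± 0.33 (SE, adjusted p = 0.000318). In WT, 1 of the 9 genes had all Al libraries above all CK libraries and 0 had them below, against 25.8% and 21.3% of all tested genes. In OX the gene had 35.4, 22.4 and 28.4 CPM in Al-OX, against 12.9, 32.1 and 17.4 CPM in CK-OX. There the groups overlapped through CK-OX replicate 2, and the log2 fold change was 0.47 ± 0.31 (adjusted p = 0.255). Without that library it was 0.91 and passed the threshold (adjusted p = 0.0200), and without CK-OX replicate 1 it was 0.21 (adjusted p = 0.629).

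Among the reads of the listed chromosome 8 copies, the share given to Glyma.08G109500 moved with Al in WT. It was 31.8% ± 5.3 in Al-WT and 8.59% ± 1.25 in CK-WT (SD, n = 3). In OX it was 20.3% ± 3.6 in Al-OX and 14.6% ± 4.3 in CK-OX (SD, n = 3), with overlap. The share of Glyma.08G109400 went the other way in WT, at 42.4% ± 3.5 in Al-WT and 64.2% ± 3.1 in CK-WT. Summed over the listed chromosome 8 copies, the level in WT was 64.5 ± 6.1 CPM in Al-WT and 53.8 ± 12.9 CPM in CK-WT, and these groups overlapped. When those copies were summed into 1 row before the fit, no Al response was called in WT (log2 fold change 0.26 ± 0.23 SE, adjusted p = 0.409).

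**Figure D3:**
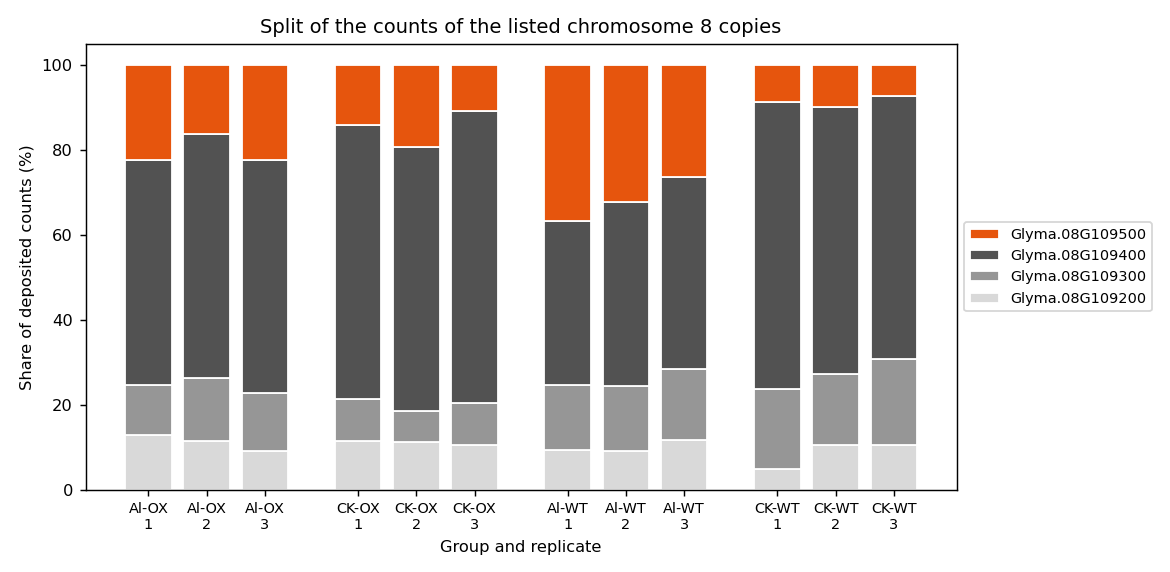
Share of the deposited counts of the listed chromosome 8 copies held by each of the 4 detected ones, in each library (bars stack to 100%). Glyma.08G109500, on top, holds 26.3% to 36.8% in the Al-WT libraries and 7.28% to 9.77% in the CK-WT libraries.

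In OX, Glyma.08G109300 was closest to an Al call. It had 18.5, 20.8 and 17.5 CPM in Al-OX, against 9.05, 12.2 and 15.99 CPM in CK-OX. All Al-OX libraries lay above all CK-OX libraries, as for 27.8% of all tested genes. The log2 fold change was 0.61 ± 0.23 (SE, adjusted p = 0.0541), and it passed the threshold without CK-OX replicate 3 (adjusted p = 0.0169) or without CK-WT replicate 1 or 3 (adjusted p = 0.0414 and 0.0208). Without CK-OX replicate 1 it was 0.42 (adjusted p = 0.204). In WT the gene averaged 10.2 ± 0.5 CPM in Al-WT and 10.1 ± 3.1 CPM in CK-WT (SD, n = 3).

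Glyma.09G075200 had few counts, from 1.44 to 69.5 per library. Its values carried decimals in 12 of 12 libraries, so they may depend on a division of shared reads, which was not tested. In Al-OX replicate 3 and Al-WT replicate 1 it had 1.44 and 2.48 counts, below the 3 counts used as a floor. Glyma.09G075200 had 1.45, 0.706 and 0.0857 CPM in Al-OX, against 2.00, 3.76 and 2.92 CPM in CK-OX. Every Al-OX library was below every CK-OX library, as for 23.2% of all tested genes. The log2 fold change was -1.97 ± 0.75 (SE, adjusted p = 0.0576), and it moved most with the Al-OX libraries. Without Al-OX replicate 1 it was -2.89 and passed (adjusted p = 0.0304), and without Al-OX replicate 3 it was -1.41 (adjusted p = 0.149). It also passed without CK-WT replicate 1 or 3 (adjusted p = 0.0453 and 0.0415), with library totals (0.0393) and when only the OX groups were fitted (0.0426). In WT it had 0.158, 0.557 and 0.817 CPM in Al-WT, against 0.566, 1.33 and 2.34 CPM in CK-WT, with overlap and a log2 fold change of -1.41 ± 0.79 (adjusted p = 0.179).

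Glyma.02G130400 spread widely within every group. It had 4.58, 5.12 and 2.44 CPM in Al-OX, against 4.34, 9.86 and 9.49 CPM in CK-OX. In WT it had 3.74, 3.04 and 6.14 CPM in Al-WT, against 1.53, 3.33 and 8.14 CPM in CK-WT. The groups overlapped in both lines, and its adjusted p was 0.170 in OX and 0.994 in WT. Glyma.05G153200 averaged 9.94 ± 0.81 CPM in Al-OX and 14.4 ± 6.1 CPM in CK-OX, and 5.80 ± 0.79 CPM in Al-WT and 7.66 ± 2.36 CPM in CK-WT (SD, n = 3). Neither Al response of Glyma.05G153200 was called (adjusted p = 0.158 in OX and 0.297 in WT). The remaining chromosome 8 copies were not called for Al either: Glyma.08G109200 had adjusted p = 0.961 in OX and 0.446 in WT, and Glyma.08G109400 had 0.405 and 0.251.

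Glyma.01G228700 and Glyma.11G011500 together held most of the reads given to the 10 genes. Glyma.01G228700 had 72.1% ± 1.2 of them in Al-OX, 66.9% ± 0.5 in CK-OX, 60.6% ± 1.3 in Al-WT and 63.3% ± 3.6 in CK-WT (SD, n = 3). Glyma.11G011500 had 18.2% ± 0.4 in Al-OX, 24.1% ± 0.9 in CK-OX, 33.0% ± 0.5 in Al-WT and 30.3% ± 3.5 in CK-WT. These are shares of reads and not of transcripts, since no gene length is paired with the identifiers. Neither gene was called for Al in either line. The log2 fold change of Al against CK for Glyma.01G228700 was -0.08 ± 0.26 in OX and 0.09 ± 0.26 in WT (SE, adjusted p = 0.836 and 0.805), and the value in WT turned negative with scaling by library totals. For Glyma.11G011500 it was -0.60 ± 0.30 in OX and 0.23 ± 0.30 in WT (SE, adjusted p = 0.144 and 0.589).

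The ratio of counts of this pair, Glyma.01G228700 over Glyma.11G011500, did not overlap between the lines in either treatment. It was 3.96 ± 0.12 in Al-OX, 2.78 ± 0.09 in CK-OX, 1.84 ± 0.07 in Al-WT and 2.12 ± 0.36 in CK-WT (SD, n = 3). The Al-OX libraries ranged from 3.87 to 4.10 and the CK-OX libraries from 2.68 to 2.86, both without overlap with the WT libraries, which ranged from 1.77 to 1.91 in Al-WT and from 1.75 to 2.47 in CK-WT. A ratio within a library shows unequal change of the pair and is unaffected by scaling between libraries, but it would depend on how any shared reads were divided. The ratio was picked out after its values were seen and is given without a test.

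**Figure D4:**
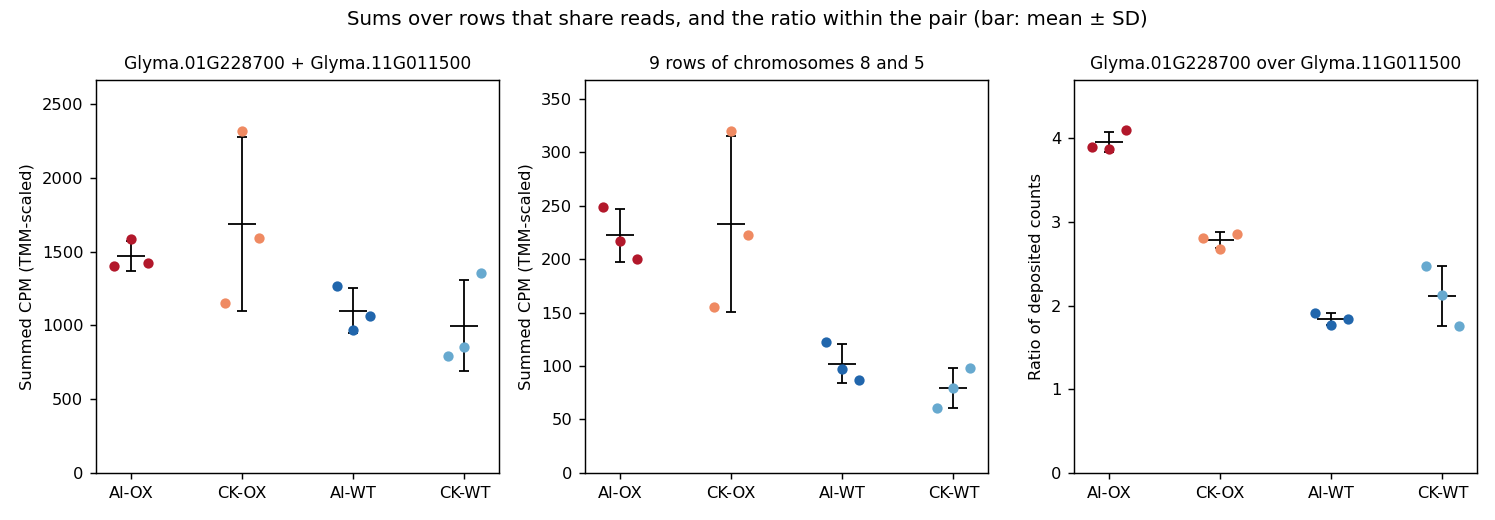
Left and middle, TMM-scaled CPM summed over the rows of each closed set, and right, the ratio of deposited counts of Glyma.01G228700 over Glyma.11G011500, with dots for replicates 1 to 3 and bars for the mean ± SD (n = 3), on axes from 0. The set of 9 rows lies between 155 and 320 CPM in the OX libraries and between 60.4 and 122 CPM in the WT libraries, whereas the sums of the pair overlap between the lines in CK.

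Each closed set was also summed, since a sum does not depend on how reads are divided within the set. The 9-row set averaged 222 ± 25 CPM in Al-OX, 233 ± 83 CPM in CK-OX, 102 ± 18 CPM in Al-WT and 79.4 ± 18.8 CPM in CK-WT (SD, n = 3). Fitted as 1 row, it was higher in OX in Al (log2 fold change 1.12 ± 0.26 SE, edgeR adjusted p = 0.0224) and in CK (1.55 ± 0.26, adjusted p = 0.00565). For Al against CK its log2 fold change was -0.07 ± 0.26 in OX (adjusted p = 0.855) and 0.36 ± 0.26 in WT (adjusted p = 0.295). It includes 4 rows that are not on the list, of which Glyma.08G110500 had 57.7 ± 7.6 CPM in Al-OX, 58.3 ± 37.8 CPM in CK-OX, 22.7 ± 11.8 CPM in Al-WT and 10.2 ± 2.6 CPM in CK-WT. Fitted on its own, Glyma.08G110500 was called higher in CK-OX than in CK-WT, by a log2 fold of 2.52 ± 0.44 (SE, adjusted p = 0.00736). The pair averaged 1470.3 ± 101 CPM in Al-OX, 1687 ± 588 CPM in CK-OX, 1099 ± 151 CPM in Al-WT and 997 ± 309 CPM in CK-WT, and no comparison of the summed pair was called (adjusted p from 0.184 to 0.795).

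Over all 10 genes the summed level was 1626 ± 99 CPM in Al-OX, 1853 ± 632 CPM in CK-OX, 1174 ± 153 CPM in Al-WT and 1065 ± 327 CPM in CK-WT (SD, n = 3). The ratio of OX to WT means was 1.39 in Al, where the libraries did not overlap, and 1.74 in CK, where they did. OX was higher in 3 of 3 same-numbered CK pairs, but the pairing was taken from these data and is not given by the labels. For the listed chromosome 8 copies alone the same ratios were 2.19 and 2.61, without overlap in either treatment. The ratio of Al to CK means over all 10 genes was 0.878 in OX and 1.10 in WT, and the ratio in WT became 0.969 with scaling by library totals.

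The last comparison asked whether the Al response differs between the lines. None of the 9 genes passed (edgeR), where 0.88% of all tested genes had a higher response in OX and 0.748% a lower one, and 1 had an unadjusted p under 0.05 (6.2% of all tested genes, lower). That gene was Glyma.08G109500, whose Al response in OX minus that in WT was -1.71 ± 0.45 on the log2 scale (SE, adjusted p = 0.0920). It was the 1 gene called by the DESeq2 Wald test (adjusted p = 0.0137), which called 1.97% of all tested genes lower, while limma-voom called 0 of the 9 and 0.369% of all. It also passed without CK-OX replicate 1 (adjusted p = 0.0309), and over the alternatives its adjusted p reached 0.209, so the responses of the lines are not shown to differ or to be alike. The other 8 had differences from -0.96 to 0.60 with adjusted p of 0.489 or more. The comparisons share libraries: a low CK-WT level enters both the genotype difference in CK and the Al response in WT of Glyma.08G109500.

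By identifier number, 11 rows not on the list lie between the first and last chromosome 8 member. Of these, 3 had no count and 7 were tested. In OX against WT, 1 of the 7 was called higher in CK and 0 in Al, against 2.93% and 4.16% of all tested genes. The row called was Glyma.08G110500, which belongs to the larger closed set and so may share reads with listed copies. Glyma.08G110300 belongs to that set too and was not called. No tested row between them from outside that set was called between the lines. For Al against CK, 2 of the 7 were called higher in OX and 1 in WT, near the 21.2% and 21.5% of all tested genes. Glyma.08G109700, next but one to Glyma.08G109500, was picked from them after its values were seen and rose with Al in both lines, by a log2 fold of 0.79 ± 0.18 in OX and 0.99 ± 0.19 in WT (SE, adjusted p = 0.00543 and 0.00130).

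Among 19707 tested genes with a mean of at least 10 CPM, Glyma.19G144700 had the pattern most like the summed level of the 10 genes over the 12 libraries, with Pearson's r at 0.953 and Spearman's rho at 0.951 on the log2(CPM + 1) scale. It averaged 146 CPM in Al-OX, 138 CPM in CK-OX, 81.2 CPM in Al-WT and 80.4 CPM in CK-WT. The next 4 were Glyma.09G269500, Glyma.10G058100, Glyma.10G269700 and Glyma.06G127300, with Pearson correlations of 0.941 to 0.925. Without CK-OX replicate 2, 1 of the 5 stayed among the top 5, which was Glyma.19G144700 at 0.972. These libraries share their groups, so the correlations are a description. Most reads of the sum are of Glyma.01G228700 and Glyma.11G011500, so the likeness is mainly to that pair. Values with decimals occurred in 11 of 12 libraries for Glyma.19G144700 and in 12 for Glyma.10G058100. They occurred in 6 for Glyma.10G269700, 2 for Glyma.09G269500 and 0 for Glyma.06G127300. Whether these rows share reads was not tested.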

How the data were processed

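The deposited table, made by the authors, holds estimated counts per gene that were not scaled between libraries, as seen from its values. HTSeq 0.6.0, HISAT2 2.1.0, Bowtie2 2.2.3, TopHat2 and CASAVA appear in the submitters' processing notes, with no role stated. Which step left decimals, the build and the strand setting were not given in the sources used here, so overlapping and antisense genes could not be told apart. 8 rows holding fragments of annotation text and no values were left out, and values were rounded to whole numbers. Genes passing filterByExpr (minimum count 10, minimum total 15), 37170 in all, were scaled by TMM and fitted in 1 model with a mean per group over 12 libraries (edgeR 4.0.16, R 4.3.3, robust quasi-likelihood F-test, two-sided). Standard errors are approximate, from dividing the fitted log2 change by the root of F. On simulated data, 92% of genes changed by a log2 fold of 2 and 45.4% of those changed by 1 were recovered between Al-OX and CK-OX, and 72% and 11.3% for the difference of responses. These percentages are of changed genes that passed the filter. The simulated spread followed the trend with level over all genes, so recovery for genes that vary more than the trend is not given. DESeq2 1.42.0 and limma 3.58.1 served as alternatives, besides other scaling, filtering, rounding, thresholds, samples fitted, summed copies and single libraries left out.

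All 10 listed genes are named, with the 5 genes of at least 10 CPM most like their sum by Pearson correlation and, from the rows between them, those the text says were chosen by value or by read sharing. The members, lists and tests were chosen with earlier results of these data known. Pathway, marker and promoter lists fixed by name could not be used, because no identifier was paired with a name, and no sequences are printed here. Deviations of same-numbered libraries correlated across genes at 0.172, 0.293 and 0.416 between Al-WT and CK-WT, and at 0.485, 0.176 and 0.686 between CK-OX and CK-WT, so the numbers were treated as pairs there, on the data alone. Between Al-OX and CK-OX (0.290, -0.0188 and 0.221) and between Al-OX and Al-WT (0.0352, -0.154 and 0.0137) they were not. The correlations of the comparisons taken as paired and not paired overlap, and libraries of unlike numbers were not compared. A pairing is therefore not established. The totals of 15923413 to 18399566 counts set the precision, and floors cover counting error only.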

Additional observations from a re-analysis of the deposited data

How the results depend on the processing

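Of the 6 calls, those of Glyma.08G109500 (Al-WT against CK-WT, and CK-OX against CK-WT) and of Glyma.08G109400 (Al-OX against Al-WT) held under every alternative that fitted them as single rows (adjusted p up to 0.00212, 0.0341 and 0.00894). The number of genes called in Al against CK in OX, 0 in the report, was 1 with library totals, with the replicate block and with only the groups compared, and 2 by the DESeq2 Wald test and by limma-voom. In Al against CK in WT it was 1, and 0 with either set of copies summed. In OX against WT in Al it was 2, and 1 at an adjusted p under 0.01 and with either set of copies summed, and 5 with only the groups compared. In OX against WT in CK it was 3, and 1 with only the groups compared and with either set of copies summed. For the difference of responses it was 0, and 1 by the DESeq2 Wald test. Leaving out 1 library at a time gave 0 to 2 in Al against CK in OX, 1 to 3 in OX against WT in Al, 2 to 5 in OX against WT in CK and 0 to 1 for the difference. The share of all tested genes is not given for library totals, the replicate block, the stricter threshold, summed copies or single libraries left out. Counts under those settings show only how the calls of the listed genes moved. In the main fit, Al against CK in OX called 21.2% of all tested genes higher and 15.2% lower. For OX against WT the summed copies were called as 1 row, so those counts are lower by construction. For Al against CK in WT the sums were tested and not called (0.26 and 0.36, adjusted p = 0.409 and 0.295). The cause of the other changes was not tested. The replicate block changed no call in either comparison treated as paired. It was 1 term for replicate number over all groups, also those not treated as paired, so it is no separate check of the pairing in those comparisons. In Al against CK in OX it gave Glyma.08G109300 an adjusted p of 0.0249. Summing the read-sharing copies was added after the data were seen.

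Scaling by library totals lowered the median log2 fold change of all genes by 0.17 in OX and 0.18 in WT for Al against CK and the summed level in Al-OX became 1509.75 CPM. It turned the sign of 3 values that were not called: Glyma.08G109300 and Glyma.01G228700 in Al against CK in WT (-0.18 and -0.091) and Glyma.08G109200 in Al against CK in OX (-0.13). Glyma.02G130400 in Al against CK in WT turned with limma-voom (0.24), the replicate block (0.11) and only the groups compared (0.0021), and in OX against WT in Al with the replicate block (0.0078). Glyma.09G075200 in OX against WT in Al turned with limma-voom (-0.0028). With single libraries left out, Al against CK in WT ran from -0.15 to 0.28 for Glyma.08G109300, -0.025 to 0.32 for Glyma.01G228700 and -0.41 to 0.83 for Glyma.02G130400, and Al against CK in OX from -0.20 to 0.22 for Glyma.08G109200 and -0.29 to 0.20 for Glyma.01G228700. OX against WT in Al ran from -0.43 to 1.04 for Glyma.09G075200 and -0.31 to 0.25 for Glyma.02G130400. The difference of responses ran from -0.14 to 0.26 for Glyma.08G109400, -0.40 to 0.28 for Glyma.05G153200, -0.73 to 0.0064 for Glyma.08G109200, -1.47 to 0.0026 for Glyma.09G075200 and -0.40 to 0.11 for Glyma.01G228700. None of these values was called in either direction. Glyma.09G075200 had 69.5 counts or fewer per library, and the part of depth in its spread was not tested.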
